A study of Mus musculus with 9 samples.

Results

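The CD300 proteins and PILRα are immunoglobulin-like receptors on the surface of myeloid cells. Their 8 genes, *Cd300a*, *Cd300c*, *Cd300e*, *Cd300lb*, *Cd300ld*, *Cd300lf*, *Cd300lg*, and *Pilra*, were chosen by name and followed in 3 sorted populations of mouse bone marrow (BM). All 8 genes had 1 probe set of their own, among 19937 genes with a probe set that names that gene and no other.

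BM was taken from untreated C57Bl/6 mice of 8 weeks in steady state, and all 3 populations were sorted as Ly6Chi CD115+ cells. R1 monocytes were Flt3-CD11c-, R2 monocytes were Flt3+CD11c-, and R3 pre-dendritic cells (pre-DCs) were Flt3+CD11c+. Each population was measured on 3 arrays. The sample titles give each of them 1 of 3 dates without saying which step was done then. Arrays of the same date carry the same replicate number. The 1 ng of RNA per sample was amplified before hybridization, and nothing in the labels says whether replicates came from separate mice, so p-values measure the spread between arrays, which may be technical.

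Levels are given as log2 intensity of the probe set, a scale on which 1 unit is a doubling and on which different probe sets are not comparable. A difference was called at an adjusted p under 0.05 in limma with Benjamini-Hochberg adjustment over all 19937 genes. In bulk samples, fewer cells that express a gene and less RNA per cell cannot be told apart.

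Paired receptors come in inhibitory and activating forms that are encoded by neighboring genes and bind related ligands. The inhibitory forms, among them CD300a, CD300lf, and PILRα, carry ITIMs, tyrosine motifs in the cytoplasmic tail that recruit the phosphatases SHP-1 and SHP-2. The activating forms signal through small adaptor proteins with ITAM motifs, such as DAP12 (*Tyrobp*) and the Fc receptor γ chain (*Fcer1g*). CD300 proteins bind lipids, including phospholipids exposed on dying cells, and PILRα binds sialylated O-glycoproteins.

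The CD300 genes lie on chromosome 11, and *Pilra* lies on chromosome 5 near its activating counterparts *Pilrb1* and *Pilrb2*. The RefSeq promoter windows (GRCm38.p6, 250 bases before to 50 bases after the annotated start) held 7 of the 8 members, with *Cd300lg* not matched. Shown here are the windows of *Cd300c*, *Cd300lb*, *Cd300lf*, and *Pilra*, the members called in R3 against R1, together with *Pilrb1*, whose window nearly repeats that of *Pilra*. Each reads 5′ to 3′ in the direction of the gene, and capitals mark GGAAGT or GAGGAA on either strand.

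Cd300c (chr11:114960458-114960757, minus strand): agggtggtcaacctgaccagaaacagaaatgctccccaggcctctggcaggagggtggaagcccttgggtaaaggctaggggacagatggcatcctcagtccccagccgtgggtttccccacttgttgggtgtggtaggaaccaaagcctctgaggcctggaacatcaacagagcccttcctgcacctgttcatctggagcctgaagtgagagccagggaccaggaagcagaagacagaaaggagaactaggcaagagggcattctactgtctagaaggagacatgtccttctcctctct
Cd300lb (chr11:114934322-114934621, minus strand): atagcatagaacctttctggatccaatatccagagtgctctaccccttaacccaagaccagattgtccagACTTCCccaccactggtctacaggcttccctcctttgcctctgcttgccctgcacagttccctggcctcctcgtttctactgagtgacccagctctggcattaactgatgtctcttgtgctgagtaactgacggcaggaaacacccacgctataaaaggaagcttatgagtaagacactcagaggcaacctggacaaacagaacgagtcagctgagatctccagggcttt
Cd300lf (chr11:115133943-115134242, minus strand): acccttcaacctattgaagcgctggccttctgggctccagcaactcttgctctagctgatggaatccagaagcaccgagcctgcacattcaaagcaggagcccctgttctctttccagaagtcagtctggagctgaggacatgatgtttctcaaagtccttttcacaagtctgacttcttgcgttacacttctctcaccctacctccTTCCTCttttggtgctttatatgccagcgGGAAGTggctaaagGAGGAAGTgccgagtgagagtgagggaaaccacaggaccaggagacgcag
Pilra (chr5:137836229-137836528, minus strand): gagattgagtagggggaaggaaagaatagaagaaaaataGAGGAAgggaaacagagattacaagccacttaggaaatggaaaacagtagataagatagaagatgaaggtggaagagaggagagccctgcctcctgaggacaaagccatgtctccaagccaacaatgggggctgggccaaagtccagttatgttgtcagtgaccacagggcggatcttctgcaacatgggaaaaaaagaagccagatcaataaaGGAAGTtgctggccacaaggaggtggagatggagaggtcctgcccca
Pilrb1 (chr5:137858000-137858299, minus strand): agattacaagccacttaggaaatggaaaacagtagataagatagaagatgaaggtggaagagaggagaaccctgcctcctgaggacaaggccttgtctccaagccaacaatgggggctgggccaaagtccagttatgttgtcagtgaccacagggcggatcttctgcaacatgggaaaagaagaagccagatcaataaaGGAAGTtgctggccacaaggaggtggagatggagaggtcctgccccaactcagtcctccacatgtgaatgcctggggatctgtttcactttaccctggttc

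GGAAGT, the core bound by Ets factors, was found in 5 of the 7 member windows and in 23.8% of 32851 promoter windows. GAGGAA, a core of PU.1 sites that can overlap GGAAGT, was found in 4 of 7 and in 28.3% of all windows. The *Cd300c* window held neither, and the *Cd300lf* window held both of them in 2 places each. A pair of GAAA blocks 2 bases apart, a match of the interferon response type, was found in 2 of 7 windows (*Pilra* and *Cd300c*) and in 3.44% of all windows. TTNNGCAA, of the C/EBP type, was found in 2 of 7 (*Pilra* and *Cd300a*) and in 10.8%. All 4 were searched on both strands, GGAAGT was chosen after the windows had been seen, and a match describes letters, not a bound site.

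The *Pilra* window aligned with that of *Pilrb1* over 246 bases, of which 242 were identical (98.4%), and with that of *Pilrb2* over 246 bases, of which 244 were identical (99.2%). The GGAAGT they share starts at base 4 after the *Pilra* start and at base -51 of the *Pilrb1* and *Pilrb2* starts, since the annotated starts differ. *Cd300c* and *Cd300lb*, neighboring receptor genes, shared no such stretch, with 16 identical bases in an alignment of 20. The *Cd300c* window and that of its relative *Cd300c2* shared a shorter stretch, with 47 identical bases in an alignment of 54 (87.0%).

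The sort was visible in the arrays. *Flt3* lay at 10.99, 11.09, and 11.03 in R3, against 7.70 to 8.02 in R2 and 6.74 to 7.78 in R1. *Itgax* (CD11c) lay at 10.70 to 10.85 in R3 and at 5.06 to 6.18 on the other 6 arrays. *Csf1r* (CD115) lay between 10.63 and 11.33 on all 9 arrays. It was called lower in R3 against R1 (-0.51, adjusted p = 0.00336 in limma). It was not called in R3 against R2 (-0.24, adjusted p = 0.140) or in R2 against R1 (-0.27, adjusted p = 0.259). In R2 against R1 *Flt3* was 0.68 higher on the log2 scale and was not called (adjusted p = 0.281). The probe sets used here hold no *Ly6c1* or *Ly6c2* value.

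The R3 arrays differed from each other in markers of other cells, with replicate 1 highest. The mean log2 intensity of all 8 neutrophil markers was 8.66, 6.12, and 7.60 in R3, against 6.41 to 7.23 in R1 and 6.86 to 7.48 in R2. R3 replicate 3 thus also lay above every R1 and R2 array in this mean, and R3 replicate 2 lay below them all. Of these markers, granule genes led (*Camp* 10.79, 6.16, and 8.77 in R3), whereas *Ly6g* was at 4.21 to 5.03 on all 9 arrays, below the median of all probe sets (5.95). The mean of all 8 markers of Ly6C-low monocytes was 8.74, 7.88, and 8.10 in R3, against 8.23 to 8.45 in R1 and 7.85 to 8.13 in R2. Results that rest on R3 replicate 1 are given with and without it.

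The 8 receptor genes did not move together. In R3 pre-DCs, *Cd300c* rose 6.90-fold over R2 monocytes and 9.68-fold over R1 monocytes, whereas *Pilra* and *Cd300lb* fell in both comparisons and *Cd300lf* fell against R1. *Cd300a* and *Cd300lg* rose by less than 1.5-fold over R2 and were not called against R1. *Cd300e* and *Cd300ld* were not called in any comparison.

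For R3 against R2, 5 of 8 members were called, 3 higher and 2 lower, where 9.55% of all genes were called, 4.85% higher and 4.69% lower. For R3 against R1, 4 of 8 were called, 1 higher and 3 lower, where 13.5% of all genes were called, 6.49% higher and 7.02% lower. For R2 against R1, none was called by limma or by the methods' t-test after Benjamini-Hochberg adjustment, where limma called 0.391% of all genes. The median log2 fold change over the members was 0.20, -0.44, and -0.33 in the 3 comparisons, beside -0.01, -0.02, and -0.02 over all genes. R3 against R2 and R3 against R1 share the R3 arrays.

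**Figure D1:**
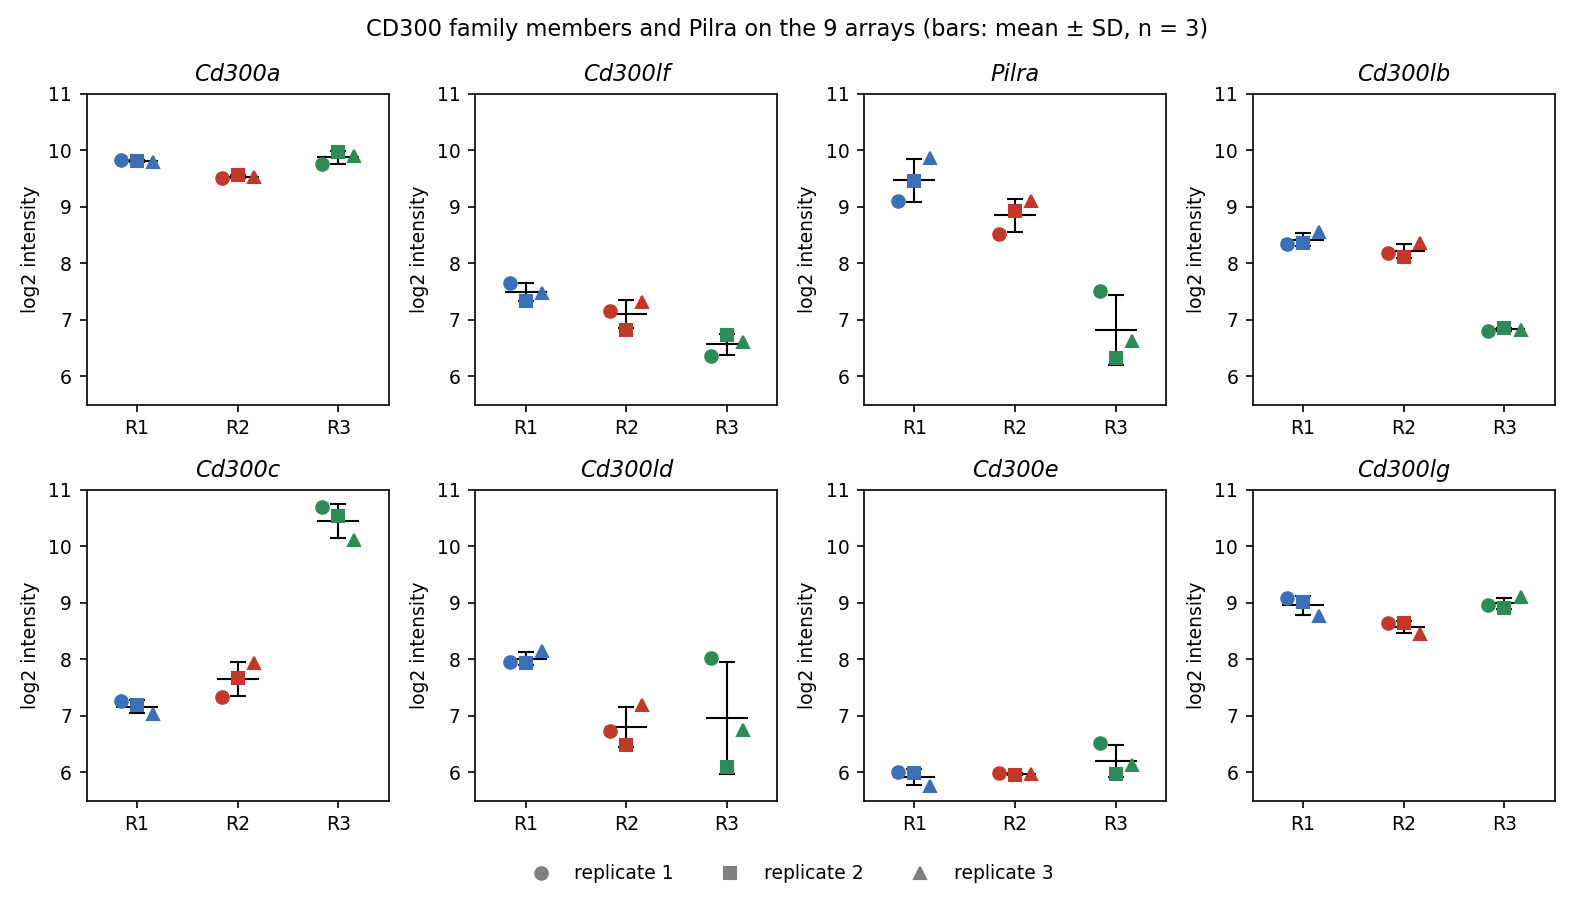
Log2 intensity of the probe set of each receptor gene (y axis, 1 panel per gene) on the 3 arrays of R1, R2, and R3 (x axis). Marker shapes give the replicate number, and bars give the mean ± SD (n = 3). *Cd300c* lay at 10.10 to 10.68 in R3 and at or below 7.94 elsewhere, *Cd300lb* and *Pilra* were lowest in R3, and *Cd300ld* spread from 6.09 to 8.03 within R3.

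*Cd300c* encodes a CD300 receptor with a short cytoplasmic tail. Its log2 intensity was 7.25, 7.20, and 7.03 in R1, 7.34, 7.67, and 7.94 in R2, and 10.68, 10.53, and 10.10 in R3. The order was R1, R2, R3, and no array of one population overlapped another. The mean was 7.16 ± 0.12 in R1, 7.65 ± 0.30 in R2, and 10.44 ± 0.30 in R3 (SD, n = 3). The log2 fold change was 2.79 (SE 0.178, adjusted p = 1.4e-05) for R3 against R2 and 3.27 (SE 0.178, adjusted p = 4.0e-06) for R3 against R1. R2 lay 0.49 above R1 (95% interval 0.09 to 0.89), and this step was not called (adjusted p = 0.351).

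*Cd300lb* encodes an activating receptor that signals through DAP12. Its probe set read 8.34, 8.36, and 8.55 in R1, 8.19, 8.11, and 8.36 in R2, and 6.80, 6.86, and 6.83 in R3. The R3 arrays lay within 0.06 of each other and below every monocyte array, whereas R1 and R2 overlapped. R3 was 2.62-fold below R2 (log2 fold change -1.39, SE 0.0855, adjusted p = 1.2e-05) and also below R1 (log2 fold change -1.59, adjusted p = 3.8e-06). R1 and R2 were not distinguished (difference -0.20, adjusted p = 0.464).

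*Pilra* encodes the inhibitory PILRα. Log2 intensity was 9.10, 9.45, and 9.85 in R1, 8.52, 8.92, and 9.10 in R2, and 7.51, 6.33, and 6.62 in R3. All R3 arrays lay below all monocyte arrays, and the R1 and R2 arrays met at 9.10. R3 was 4.07-fold below R2 (log2 fold change -2.03, SE 0.304, adjusted p = 0.00258) and 6.26-fold below R1 (log2 fold change -2.65, SE 0.304, adjusted p = 0.000389). R2 against R1 gave -0.62 (95% interval -1.31 to 0.07, adjusted p = 0.530). The highest R3 value was that of replicate 1, and without this array the R3 differences were -2.37 from R2 and -2.99 from R1. Without replicate 2 or replicate 3 of all populations, the call against R2 was lost (-1.75 and -1.80, adjusted p = 0.0932 and 0.0824).

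*Cd300lf* encodes an inhibitory receptor with ITIMs. Its log2 intensity was 7.65, 7.33, and 7.47 in R1, 7.15, 6.82, and 7.31 in R2, and 6.37, 6.73, and 6.61 in R3. The order was R1, R2, R3 from high to low, with no overlap between populations. R3 was 1.88-fold below R1 (log2 fold change -0.91, SE 0.144, adjusted p = 0.00258). The steps from R1 to R2 (-0.39, adjusted p = 0.358) and from R2 to R3 (-0.53, adjusted p = 0.0545) were not called. The R3 against R1 call was lost without replicate 1 of all populations (-0.73, adjusted p = 0.0679). The R2 to R3 step was called in 4 of 21 alternatives. These were each array centered on its median (-0.49, adjusted p = 0.0497) and dim probe sets left out (-0.53, adjusted p = 0.0330). The others left out replicate 2 of all populations (-0.74, adjusted p = 0.0467) or R2 replicate 2 (-0.66, adjusted p = 0.0242).

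*Cd300a* encodes the other ITIM-bearing receptor of the family measured here. It was measured at 9.82, 9.80, and 9.78 in R1, 9.50, 9.56, and 9.53 in R2, and 9.75, 9.96, and 9.90 in R3. R2 was lowest, with no overlap with either neighbor, and R1 and R3 overlapped. R3 was 1.27-fold above R2 (log2 fold change 0.34, SE 0.0704, adjusted p = 0.0150) and did not differ beyond its spread from R1 (0.07, 95% interval -0.09 to 0.23). The R3 against R2 call was lost without R2 replicate 1, R2 replicate 3, or R3 replicate 2 (adjusted p = 0.0627, 0.0512, and 0.0532), and without replicate 2 or replicate 3 of all populations (adjusted p = 0.200 and 0.175).

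*Cd300lg* encodes nepmucin, known from endothelial cells. Its log2 intensity was 9.09, 9.01, and 8.76 in R1, 8.64, 8.63, and 8.44 in R2, and 8.96, 8.90, and 9.09 in R3. R2 was again lowest without overlap. R3 was 1.33-fold above R2 (log2 fold change 0.41, SE 0.103, adjusted p = 0.0347) and 0.03 from R1 (95% interval -0.20 to 0.26). The R3 against R2 call was lost with the replicate number as a block, which pairs arrays of a date (0.41, adjusted p = 0.0543), and without any single R2 or R3 array (adjusted p = 0.0540 to 0.135). Of 7 endothelial markers, *Cdh5*, *Kdr*, *Tek*, *Vwf*, *Emcn*, and *Cldn5* were called in no comparison. The seventh, *Pecam1*, which DCs also express, was called higher in R3, by 1.51 over R2 and 1.92 over R1. In R3 against R2 the other markers ran from -0.12 (*Vwf*) to 0.22 (*Cdh5*). The mean of the 7, with *Pecam1* in it, was 5.17 to 5.24 in R1, 5.28 to 5.30 in R2, and 5.52 to 5.55 in R3. Their part in the *Cd300lg* result was not tested.

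*Cd300ld* encodes an activating receptor that pairs with the Fc receptor γ chain. Its log2 intensity was 7.95, 7.93, and 8.14 in R1, 6.73, 6.49, and 7.19 in R2, and 8.03, 6.09, and 6.75 in R3. R2 lay below R1 on all arrays, by 1.21 (2.31-fold, 95% interval -2.13 to -0.28), but was not called (unadjusted p = 0.0161 and adjusted p = 0.307 in limma). Within R3, replicate 1 lay in the R1 range and the other arrays in or below the R2 range. With all arrays, R3 against R1 gave -1.05 (adjusted p = 0.146) and R3 against R2 gave 0.16 (adjusted p = 0.917). Without R3 replicate 1, the values were -1.59 (adjusted p = 0.00427) and -0.38 (adjusted p = 0.531). That array was also the highest in the means of the neutrophil and Ly6C-low monocyte markers, whose part in the *Cd300ld* spread was not tested.

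*Cd300e* is known from Ly6C-low monocytes. Its signal was 6.01, 5.99, and 5.75 in R1, 5.99, 5.95, and 5.97 in R2, and 6.52, 5.97, and 6.13 in R3. These values lay near the median of all probe sets (5.95), and all populations overlapped. The largest of the 3 differences was 0.29, for R3 against R1 (95% interval -0.01 to 0.59, adjusted p = 0.233), and it was 0.13 without R3 replicate 1.

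**Figure D2:**
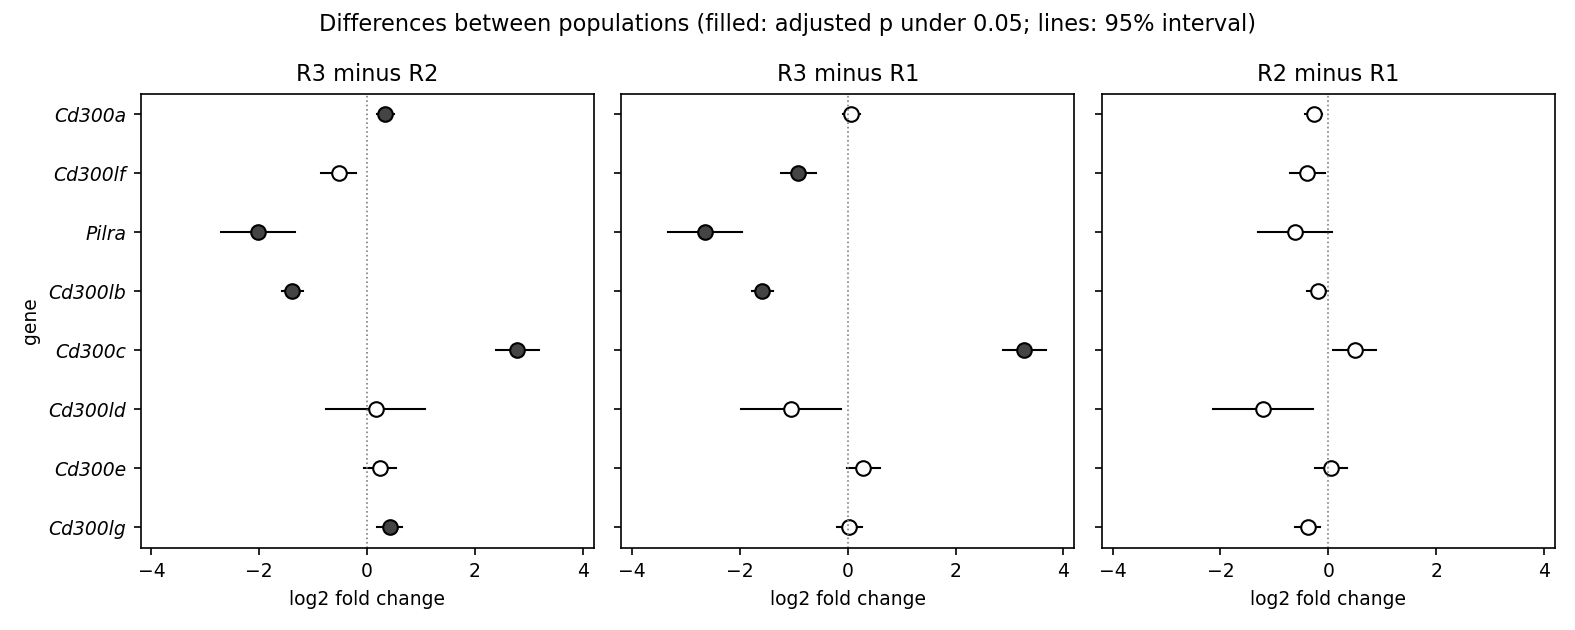
Log2 fold change of each receptor gene (rows) for R3 minus R2, R3 minus R1, and R2 minus R1 (x axis, 1 panel each). Lines give the 95% interval, and filled points were called in limma. *Cd300c* lay at 2.79 and 3.27 and *Pilra* at -2.03 and -2.65 in the R3 panels, and no point was filled for R2 minus R1.

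Between the monocyte populations, 6 of 8 members had a lower mean in R2 and 2 a higher one, with log2 fold changes from -1.21 (*Cd300ld*) to 0.49 (*Cd300c*). In R2 against R1, 5 of 8 members did not overlap, where 13.4% of all genes did not. The 4 members *Cd300a*, *Cd300lf*, *Cd300ld*, and *Cd300lg* lay lower in R2, where 7.99% of all genes did, and *Cd300c* lay higher. Markers of Ly6C-low monocytes also lay lower in R2. The mean of all 8 was 8.23 to 8.45 in R1 and 7.85 to 8.13 in R2, and 7 of 8 had a lower mean in R2 (*Nr4a1* by -0.74, *Ace* by -0.67, and *Cx3cr1* by -0.45), with none called. The 5 markers of dendritic precursors (*Zbtb46*, *Clec9a*, *Siglech*, *Kmo*, and *Cd209a*) all had a higher mean in R2. Of these, *Clec9a* (1.87, adjusted p = 0.0132 in limma) and *Kmo* (0.71, adjusted p = 0.0231) were called, where 0.391% of all genes were. The part of either marker list in the member values was not tested. At an unadjusted p under 0.05, limma gave 6 of 8 members, with *Cd300lb* as the sixth, where 10.7% of all genes passed. In R3 against R2, 6 of 8 did not overlap, where 24.8% of all genes did not. In R3 against R1, 4 of 8 did not overlap, where 24.5% of all genes did not.

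On chromosome 11, RefSeq places *Cd300a*, *Cd300lb*, *Cd300c*, *Cd300ld*, *Cd300c2*, *Cd300e*, and *Cd300lf* in this order in 1 cluster, with *Cd300ld2* to *Cd300ld5* between *Cd300c2* and *Cd300e*. Within this cluster, the receptor genes with calls in both R3 comparisons were adjacent and opposite, since *Cd300lb* fell and *Cd300c* rose. *Pilra*, on chromosome 5, was also called in both. The next receptor genes on either side, *Cd300a* and *Cd300ld*, were not called for R3 against R1. Against R2, *Cd300a* was called higher (0.34, adjusted p = 0.0150 in limma) and *Cd300ld* was not called. *Cd300lg* lies apart from this cluster.

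**Figure D3:**
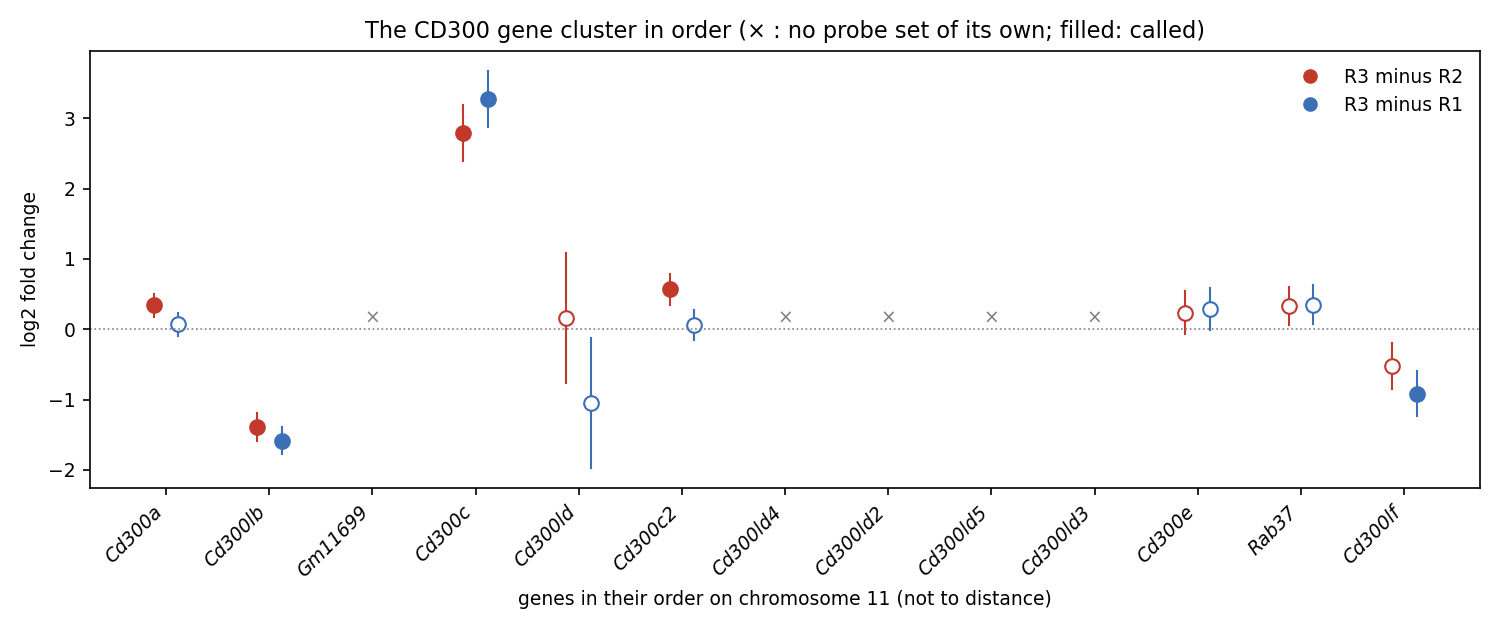
Log2 fold change with its 95% interval (y axis) for R3 minus R2 (red) and R3 minus R1 (blue), with genes in their order along the chromosome 11 cluster (x axis, not to distance). Filled points were called, and crosses mark genes without a probe set of their own. *Cd300lb* at -1.39 and -1.59 and *Cd300c* at 2.79 and 3.27 are neighboring receptor genes.

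*Cd300c2*, a near relative 2 receptor genes away from *Cd300c*, differed far less. Its log2 intensity was 9.62, 9.51, and 9.39 in R1, 8.87, 9.09, and 9.04 in R2, and 9.69, 9.58, and 9.44 in R3. R2 was lowest without overlap, the same order as for *Cd300a* and *Cd300lg*. R3 was 0.57 above R2 (adjusted p = 0.00515) and 0.06 from R1 (adjusted p = 0.786), and R2 was 0.51 below R1 (adjusted p = 0.0786). The 2 probe sets that name *Cd300ld3*, *Cd300ld4*, and *Cd300ld5* together were not used. Signal that related genes may share on a probe set was not tested.

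The activating PILR genes fell with *Pilra* in R3. *Pilrb1* was at 9.02, 9.77, and 9.81 in R1, 8.78, 8.88, and 9.09 in R2, and 7.09, 8.12, and 7.56 in R3. *Pilrb2* was at 7.96, 8.25, and 8.62 in R1, 7.51, 7.81, and 7.92 in R2, and 6.70, 6.53, and 5.92 in R3. For both genes every R3 array lay below every monocyte array. The log2 fold changes against R2 were -1.33 for *Pilrb1* (adjusted p = 0.0144) and -1.36 for *Pilrb2* (adjusted p = 0.00448), and against R1 they were -1.94 and -1.89 (adjusted p = 0.00133 and 0.000490). In R2 against R1 neither was called, at -0.62 and -0.53. R3 replicate 1 was the highest R3 array for *Pilra* and *Pilrb2* and the lowest for *Pilrb1*. *Zcwpw1*, a gene that overlaps *Pilra* in RefSeq, moved the other way, from 6.86 to 6.87 in R2 to 7.36 to 7.40 in R3 (log2 fold change 0.52, adjusted p = 0.00151). *Rab37*, which overlaps *Cd300lf*, was not called in R3 against R2 or R1 (0.32 and 0.35, adjusted p = 0.158 and 0.0956).

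Among the adaptors, *Hcst* (DAP10) was called lower in R3, and *Tyrobp* and *Fcer1g* were not called. *Hcst* was 10.07 to 10.27 in R1, 9.67 to 9.92 in R2, and 8.58 to 9.04 in R3, with log2 fold changes of -1.06 against R2 (adjusted p = 0.000592) and -1.38 against R1 (adjusted p = 9.3e-05). *Tyrobp* differed by -0.13 from R2 (95% interval -0.29 to 0.03) and by -0.18 from R1 (-0.34 to -0.03), and its adjusted p was 0.401 and 0.138. *Fcer1g* differed by 0.06 and -0.06 (95% intervals -0.08 to 0.21 and -0.21 to 0.08).

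Of 3 phosphatases that ITIMs recruit, *Inpp5d* (SHIP-1) was called higher in R3, by 0.52 over R2 and 0.42 over R1 (adjusted p = 0.00452 and 0.0111). *Ptpn6* (SHP-1) and *Ptpn11* (SHP-2) were each 0.22 above R2 and 0.12 and 0.08 above R1, with no call (adjusted p from 0.114 to 0.665). Of 7 measured downstream genes, the kinase gene *Fgr* (-1.05 and -1.52 against R2 and R1) and the signaling adaptor gene *Card9* (-0.45 and -0.49) were called lower in R3. *Pik3r1*, a regulatory subunit of phosphoinositide 3-kinase, was called higher (0.70 and 0.60), and the other 4 were not called.

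Of 5 measured genes listed as ligands of these receptors, *Cd99l2* was called lower in R3 against R2 and R1 (-1.26 and -1.36, adjusted p = 0.000607 and 0.000291). *Colec12* was called lower against R1 (-0.55, adjusted p = 0.0341), at 4.37 to 4.91 in R3 and 5.09 to 5.35 in R1, below the median of all probe sets. *Havcr1*, *Npdc1*, and *Pianp* were not called.

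Most of the other inhibitory or paired receptors of myeloid cells were called lower in R3. Of 17 measured, 11 were called lower and 2 higher in R3 against R2, with a median of -0.70, where 4.69% of all genes were called lower and 4.85% higher, with a median of -0.01. Against R1, 11 were called lower and 3 higher, with a median of -0.86, where 7.02% of all genes were called lower and 6.49% higher, with a median of -0.02. The largest falls were those of *Lilrb4a* (-2.92 and -2.97), *Clec4a2* (-2.82 and -2.99), *Trem3* (-2.55 and -2.55), and *Siglece* (-2.18 and -2.58), against R2 and R1. *Cd200r1*, an inhibitory receptor for CD200, rose by 2.13 and 1.78. None of the 17 was called by limma in R2 against R1, where 0.391% of all genes were called. In limma 4 had an unadjusted p under 0.05, where 10.7% of all genes did. None was called by the methods' t-test after adjustment, which called 0 genes higher and 1 lower there. All 38 measured genes of these lists gave 22 calls against R2 and 23 against R1, where 9.55% and 13.5% of all genes were called, and 20 and 22 without R3 replicate 1. Of all genes, 735 were called higher and 741 lower against R2 without that array, and 961 and 1157 against R1.

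**Figure D4:**
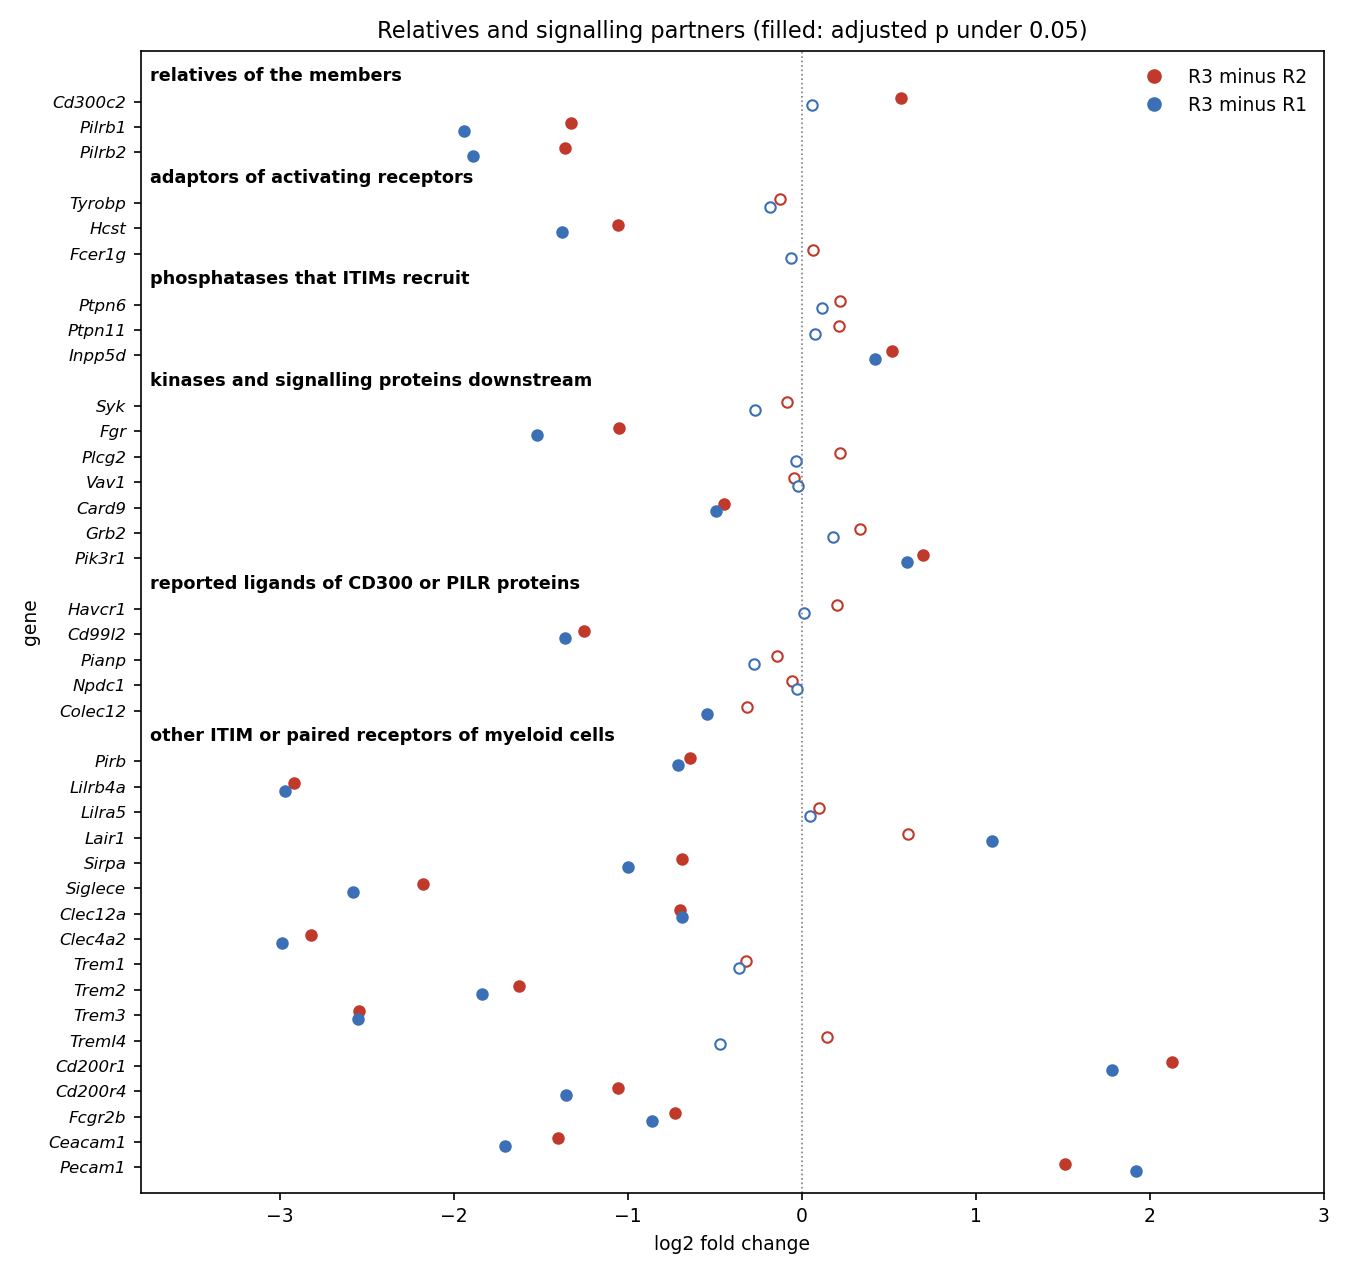
Log2 fold change (x axis) for R3 minus R2 (red) and R3 minus R1 (blue) of the measured relatives, adaptors, phosphatases, downstream genes, ligands, and other receptors (rows). Filled points were called. *Pilrb1*, *Pilrb2*, *Hcst*, *Fgr*, and *Cd99l2* lay below -1 in both comparisons, and *Cd200r1* and *Pecam1* lay above 1.

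For each member with a call, the genes most like it were ranked by Pearson's r of log2 intensity over the 9 arrays, with the arrays of 3 populations as shared points and no test. *Cd300c* was most like *Rgl1* (r = 0.994), *Srgap3* (0.994), and *Trp53i11* (0.994), each of which was higher in R3, by 3.01 to 3.91 against R2. *Cd300lb* was most like *Cd86*, a costimulatory ligand (0.997), *Gapt* (0.996), and *Gm5150* (0.996). *Pilra* was most like *Traf3ip3* (0.989), *Stom* (0.988), and *Pon2* (0.987). *Cd300lf* was most like *Calhm6* (0.984), *Nck1* (0.976), and *Acot13* (0.970). *Cd300lg* was most like the chemokine receptor gene *Cx3cr1*, one of the Ly6C-low monocyte markers (0.965), and *Cd300a* was most like *Niban1* (0.943). *Cx3cr1* also was lowest in R2, at 10.46 to 10.58, against 10.75 to 11.18 in R1 and 11.02 to 11.35 in R3.

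Among the members themselves, *Cd300lb* and *Pilra* had r = 0.950 over the 9 arrays and *Cd300lb* and *Cd300c* had r = -0.981. Of the deviations from the population means, r was 0.320 and 0.128 for these pairs. The highest r of deviations among member pairs was 0.840, for *Pilra* and *Cd300ld*, with R3 replicate 1 highest in R3 for both. The lowest was -0.937, for *Cd300a* and *Cd300ld*, with R3 replicate 1 the lowest R3 array for *Cd300a*.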

How the data were processed

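R1, R2, and R3 cells were profiled on 9 Affymetrix whole-transcript arrays after amplification of 1 ng RNA, and the data were analyzed in GenePattern, per the study's methods. The deposited values are 1 linear intensity per probe set and array, with a median of 58.0 to 64.7 on each array. Not given in the sources used here are their background correction, summarization, and scaling. Precision is limited by the number of arrays.

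Intensities were log2-transformed without a filter. Of 34760 probe sets, the platform annotation names 1 gene for 21640, several for 1321, and none for 11799. The probe set that names a single gene with the highest mean was kept, giving 19937 genes. Limma (version 3.58.1, R 4.3.3) was fitted with a mean per population over 9 arrays (lmFit, eBayes, 6 residual degrees of freedom), with Benjamini-Hochberg adjustment within each comparison and calls at an adjusted p under 0.05. The fit was tested on simulated data with independent noise and no effect of date or of other cells. That test therefore cannot show how such effects bear on the calls. Promoter windows were aligned locally with Biopython (version 1.88).

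The members and lists were chosen with earlier results of these data known. All members were named; of the other lists any relative, adaptor, phosphatase, ligand, or marker could be named, and the called genes of largest fold change among downstream genes and other receptors. *Zcwpw1* and *Rab37* were added after their values were seen.

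The labels give a shared date to each replicate number, which pairs the arrays. Deviations of arrays with the same number correlated at -0.02 to 0.15. Alternatives were the date block, scaling, the methods' t-test, a dim filter, a pseudocount of 50, all probe sets, 6 arrays per fit, a trend, and left-out arrays.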

Additional observations from a re-analysis of the deposited data

How the results depend on the processing

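The *Cd300c* and *Cd300lb* calls in both R3 comparisons held in all 21 alternatives. The *Pilra* calls held in 18 of 21 for R3 against R2 and in 20 of 21 for R3 against R1, *Cd300lf* against R1 in 19, *Cd300a* against R2 in 15, and *Cd300lg* against R2 in 7. With the replicate block, 4 members were called against R2, with *Cd300lg* lost (0.41, adjusted p = 0.0543), and the block changed no other member's call. Of all 19937 genes, 953 were called higher and 944 lower against R2 with the block. By the methods' t-test, 2 members were called in each R3 comparison. It lost *Cd300a* (0.34), *Cd300lg* (0.41), and *Pilra* (-2.03) against R2, and *Cd300lf* (-0.91) and *Pilra* (-2.65) against R1. It called 8 list genes against R2 and 10 against R1, where limma called 22 and 23. Of all 19937 genes, the t-test called 439 higher and 454 lower against R2, where limma called 967 and 936. Against R1 it called 288 higher and 370 lower, where limma called 1294 and 1399. *Cd300lg* against R2 was also lost with quantile normalization (0.39) and with all probe sets tested (0.41). *Cd300lf* against R2 was gained with median centering (-0.49) and without dim probe sets (-0.53). It was also gained without replicate 2 (-0.74) and without R2 replicate 2 (-0.66). The cause of these changes was not tested.

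With replicate numbers or single arrays left out, members called ranged from 2 to 5 for R3 against R2 and from 4 to 5 for R3 against R1, and list genes from 11 to 23 for R3 against R2. Against R2 the member count was 3 without replicate 2, R2 replicate 1, R2 replicate 3, or R3 replicate 2, and 2 without replicate 3. List genes were 11 without replicate 2. Of all genes, 359 were called higher and 398 lower against R2 without replicate 2, and 484 and 532 without replicate 3. Without R2 replicate 1 they were 653 and 647, where all 9 arrays gave 967 and 936. Without R2 replicate 3 the counts were 654 and 661, and without R3 replicate 2 they were 801 and 779. Against R1, the fits with arrays left out called from 501 to 1268 of all genes higher and from 616 to 1656 lower. Log2 fold changes against R2 ranged from 0.29 to 0.40 for *Cd300a*, from -0.74 to -0.40 for *Cd300lf*, from -2.53 to -1.75 for *Pilra*, and from 0.30 to 0.49 for *Cd300lg*. *Pilra* against R2 lost its call without replicate 2 or replicate 3 (adjusted p = 0.0932 and 0.0824). Against R1 the range was -1.07 to -0.73 for *Cd300lf* and -1.62 to -0.62 for *Cd300ld*, which was called without replicate 1 or R3 replicate 1. Signs turned for *Cd300ld* in R3 against R2 (-0.42 to 0.59), *Cd300lg* in R3 against R1 (-0.12 to 0.11), and *Cd300e* in R2 against R1 (-0.029 to 0.098), none of them called. No member was called in R2 against R1 under any alternative. Few genes of any kind were called there. Of all 19937 genes, 0 were called with all probe sets tested, without replicate 1, replicate 2, or replicate 3, or without an R2 array. In those fits the member count could not exceed 0. The most calls were 100 higher and 44 lower, with quantile normalization. All probe sets were not tried for the lists.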
